A study of Mus musculus with 56 samples.

Results

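The 31 genes described here are p53 itself (Trp53), its 2 negative regulators Mdm2 and Mdm4, and 28 genes known as targets that p53 activates. They were taken by gene symbol from a list of p53, its regulators and its targets, and all 31 were found among the 47937 genes that each of 2 count tables lists. All 31 were also expressed highly enough to be tested in both tables, Dram1 through libraries that were not wild type. RNA was sequenced from CD4+ T cells of C57BL/6 mice, isolated from spleen and lymph nodes by negative selection, activated, and polarized for 4 days into TH1, TH2, TH17 or Treg cells. The first table holds 16 wild-type (WT) libraries and 15 libraries labelled Odc-/-, with 4 of each per subset except for 3 labelled Odc-/- in TH2 cells. The second holds 12 WT libraries and 12 labelled Dohh-/-, with 3 of each per subset. Odc encodes ornithine decarboxylase, the enzyme that makes the polyamine putrescine, from which spermidine is made. Dohh encodes deoxyhypusine hydroxylase, which completes the change of a lysine of the translation factor eIF5A into the amino acid hypusine. An earlier step of that change uses spermidine. The floxed alleles were deleted by a Cre driven by the CD4 promoter, so deletion starts in developing thymocytes and covers every later T cell that has expressed CD4. Each group was compared with WT libraries of its own table and subset, to ask how p53 and its targets are expressed when polyamine or hypusine synthesis is blocked. The labels do not say that libraries of a group came from separate mice, so p-values measure the spread between these libraries.

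p53 is a transcription factor that DNA damage, oncogene activity, ribosome stress and other insults stabilize. In unstressed cells the ubiquitin ligase Mdm2, itself a p53 target, keeps p53 low, and Mdm4 blocks its activity. Active p53 binds response elements made of a pair of decamer half-sites and induces genes for cell cycle arrest, apoptosis, DNA repair and metabolism, and in T cells it limits proliferation after activation. Much of p53 control acts on the protein, which these data do not measure.

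Promoters were looked at first because every member but p53 and Mdm4 was listed as a gene that p53 induces. RefSeq promoters (build GRCm38.p6, from 250 bases before to 50 bases after each start) were given for 23 of the 31 members, as 30 windows. Both strands were searched for the p53 response element half-site, a decamer whose core of 4 bases is a C, a pair of bases that are each A or T, and a G. An exact half-site stood in 11 of the 30 windows (36.67%) against 8.36% of all 32817 promoters. A full element, taken as 2 half-sites with intact cores, a spacer of up to 13 bases and at most 3 mismatches outside the cores, stood in 9 windows (30.0%) against 6.72% of all promoters. The 9 windows are of 8 genes, since the overlapping windows of Aen hold the same element. Counted by gene, an exact half-site stood in 10 of 23 members (43.48%) against 9.55% of 26994 genes, and a full element in 8 (34.78%) against 7.62%. For each of the 8 genes the full element with the fewest mismatches is shown, with 15 bases on either side and its half-sites in capitals. Other full elements of a window are not marked.
Cdkn1a (chr17:29090891-29090952, + strand): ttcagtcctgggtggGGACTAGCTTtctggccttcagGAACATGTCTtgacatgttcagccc
Aen (chr7:78895922-78895971, + strand): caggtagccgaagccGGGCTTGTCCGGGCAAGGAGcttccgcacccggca
Bax (chr7:45467064-45467114, - strand): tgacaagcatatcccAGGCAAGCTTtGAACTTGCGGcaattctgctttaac
Bbc3 (chr7:16309471-16309520, + strand): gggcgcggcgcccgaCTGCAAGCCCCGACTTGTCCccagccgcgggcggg
Tigar (chr6:127109731-127109780, - strand): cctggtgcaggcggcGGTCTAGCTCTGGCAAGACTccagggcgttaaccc
Sesn1 (chr10:41887238-41887290, + strand): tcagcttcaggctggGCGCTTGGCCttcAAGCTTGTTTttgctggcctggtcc
Trp53 (chr11:69580269-69580318, + strand): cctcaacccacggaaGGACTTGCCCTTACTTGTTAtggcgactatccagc
Mdm4 (chr1:133025611-133025665, - strand): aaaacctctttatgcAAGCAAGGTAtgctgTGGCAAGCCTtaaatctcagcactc
The element shown for Cdkn1a had 0 mismatches and a spacer of 12 bases, from -73 to -42 relative to the start. The decamer directly after it, in lower case, has an intact core and 1 mismatch. With the half-site before it, that decamer makes a further full element with no spacer. Those of Aen, Bbc3, Tigar and Trp53 had 3 mismatches each and no spacer, and that of Mdm4 had 3 mismatches and a spacer of 5 bases. That of Bax had 2 mismatches and a spacer of 1 base, and that of Sesn1 had 2 and a spacer of 3 bases. Cdkn1a, Bbc3, Sesn1 and Mdm4 also have other windows, in which no full element was found. A match describes letters in a window and is not a measured binding site.

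Libraries held 5905374 to 9145214 counts (Odc table) or 6572148 to 12576933 (Dohh table). Apart from Odc1 in TH17 cells, the targeted genes did not separate the genotypes as labelled. The log2 fold change of Odc1 in libraries labelled Odc-/- was 0.26 in TH1, -0.20 in TH2 and 0.20 in Treg cells, where the test was not passed, and -0.41 in TH17 cells (adjusted p = 0.0416). Dohh was not lower in libraries labelled Dohh-/-, with values of 1.43 in TH1, 1.10 in TH2 and 1.15 in Treg cells, all past the test, and 0.41 in TH17 cells (adjusted p = 0.189). The counts cover all exons of a gene, so reads outside the deleted exons enter them, and groups are called by their labels throughout. The summed level of 8 T cell markers was 2693 to 4721 CPM (counts of a gene scaled to a common library total) in WT libraries, 2099 to 4001 in those labelled Odc-/- and 1651 to 3357 in those labelled Dohh-/-. The markers did not move together. Over the 8 comparisons the mean log2 fold change was -2.50 for Cd4, -1.83 for Cd5, -1.52 for Cd28 and -1.08 for Cd2, but -0.17 for Cd3d, 0.03 for Cd3g, -0.27 for Cd3e and -0.09 for Lck. Cd4, the defining marker, fell in 8 of 8 comparisons, and its group means with the label Dohh-/- were 36.1 to 61.3 CPM against 702 to 941 CPM in WT. The part of this fall in any change of a member was not tested. Markers of other cells also moved with genotype, though not every marker or subset did. The 6 basophil and mast cell markers were all called higher in 8 of 8 comparisons, and reached 167 to 962 CPM in TH17 cells labelled Dohh-/- against 1.46 to 2.34 CPM in WT. Ms4a2 and Prss34 held at most 3 counts in each WT library of the Dohh table, so they passed its low-count filter through labelled libraries. Their calls there are conditional on that level. All 6 summed to at most 3.07 CPM in WT of that table, so calls of the others may be conditional as well. Summed CD8 T and NK cell markers were 20.5 to 509.8 CPM in libraries labelled Odc-/- against 15.5 to 90.0 in WT, and 50.9 to 656 against 22.9 to 38.9 in the Dohh table. In TH2 cells of the Odc table the sums overlapped, at 20.5 to 24.3 CPM against 15.5 to 27.1 in WT. Of these markers Cd8b1 had a mean log2 fold change of -0.35, where the others had positive means over the comparisons in which they were tested. Summed B cell markers reached 524 CPM in libraries labelled Odc-/- against at most 97.8 in WT, with 6 of 6 called higher in TH1, TH2 and Treg cells. Summed myeloid markers were at most 40.1 CPM in WT libraries, 361 in those labelled Odc-/- and 4727 in those labelled Dohh-/-. In 4 of the latter, TH17 replicates 2 and 3 and Treg replicates 2 and 3, that sum was above 1000 CPM. The part of these cells in any change of a member was not tested. Some values are also given without those 4 libraries, which were picked by myeloid markers alone. Leaving them out, an alternative chosen after the data were seen, keeps only replicate 1 of the label in TH17 and in Treg cells, whose myeloid sums of 103 and 90.3 CPM were still above those of WT. Such a value takes the spread of that lone library to be like the spread in the other groups, so it is given as a fold change with no p. In bulk RNA, fewer cells of a type and less RNA per cell cannot be told apart.

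In WT cells the members were transcribed at very different levels. Per kilobase of exon, Cdkn1a, which encodes the cyclin-dependent kinase inhibitor p21, had the highest median over WT libraries of both tables (103 CPM per kb in Odc and 91.9 in Dohh libraries). Bax, an effector of mitochondrial apoptosis, followed with 73.3 and 77.95 CPM per kb, and the cyclin G gene Ccng1 with 64.0 and 60.2. The lowest members in both tables were the autophagy regulator Dram1 (0.0983 and 0.214 CPM per kb) and the TNF receptor family gene Eda2r (0.0781 and 0.0555).

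The level also depended on the WT subset. With edgeR's quasi-likelihood test and Benjamini-Hochberg adjustment over all genes tested, 28 of the 31 members differed between WT subsets of the Odc table, as did 71.1% of all genes. Among the WT libraries of the Dohh table, 22 members and 40.1% of all genes differed. There the count of members was 13 without replicate 1 and 14 without replicate 2. WT TH2 cells had the highest mean of the 4 subsets for 16 members (Odc table) or 17 members (Dohh table). The highest subset was the same in both tables for 20 members and the lowest for 16. Cdkn1a ranged from 125 CPM in TH17 to 756 in TH1 cells of the Odc table, a ratio of 6.07, and from 162 in Treg to 509.8 in TH2 cells of the Dohh table, a ratio of 3.15. Sesn1, a stress-induced inhibitor of mTORC1, was highest in Treg cells of both tables, at 74.4 and 88.3 CPM, which was 4.37 and 4.53 times its TH1 mean. Trp53inp1, whose product modifies p53 and takes part in autophagy, had the same order in both tables, from Treg through TH17 and TH2 down to TH1 cells. Trp53 differed little between WT subsets, by a ratio of 1.55 between the highest and lowest subset of the Odc table (adjusted p = 0.0019) and of 1.21 for the Dohh table (adjusted p = 0.66).

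**Figure D1:**
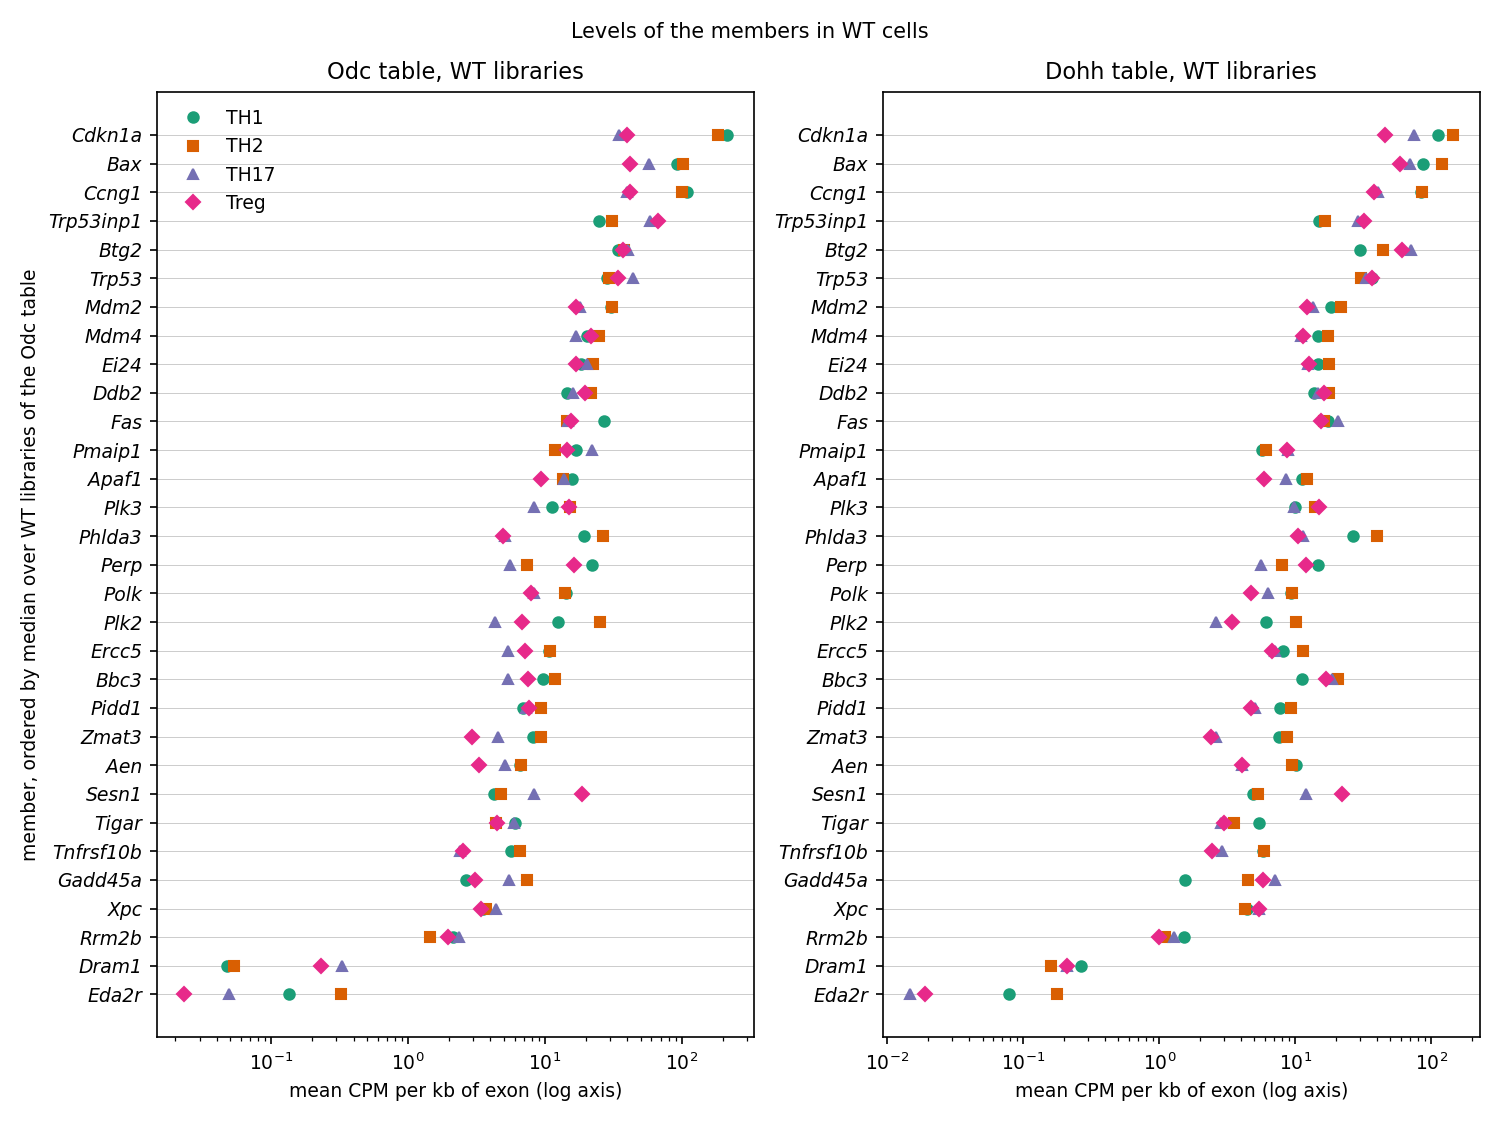
Mean level of each member in WT libraries, in CPM per kilobase of exon on a log axis, by subset (symbols) in the Odc table (left) and the Dohh table (right). Members are ordered by their median in the Odc table, from Eda2r at 0.0781 to Cdkn1a at 103 CPM per kb.

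Against WT, the members did not move as a block. A member was called when its log2 fold change passed 1 in either direction at an adjusted p below 0.05, and is said to rise or fall when the adjusted p alone was below 0.05. Over the 8 comparisons, 161 of 248 pairs of member and comparison passed the test and 61 were called. In libraries labelled Odc-/-, 18 pairs were called higher and 8 lower. In libraries labelled Dohh-/-, 12 pairs were called higher and 23 lower. Of the pairs called higher, Dram1 gave 3 with the label Odc-/- and 4 with the label Dohh-/-. It passed the low-count filter through labelled libraries, so these calls are conditional on its level there. Of the 31 members, 22 were called at least once, and 9 were called in no comparison, namely Trp53, Mdm2, Ccng1, Plk3, Tnfrsf10b, Ei24, Apaf1, Rrm2b and Xpc. The share of all genes called at least once was not computed, so this count is description and not a result about the members.

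These counts are read against all genes, of which many changed. In TH1 cells labelled Odc-/-, 4 members (12.9%) were called higher and 2 (6.45%) lower, where 10.2% and 11.3% of the 13839 genes tested were. By the adjusted p alone, 11 rose and 11 fell (35.5% each), against 29.1% and 27.7% of all genes. In TH2 cells, 1 member (3.23%) was called higher and 4 (12.9%) lower, against 11.5% and 13.6%, while 6 rose and 12 fell (19.4% and 38.7%, against 29.9% and 29.3%). TH17 cells had 6 members (19.4%) called higher and 1 (3.23%) lower, against 8.35% and 7.21%, and 14 that rose and 6 that fell (45.2% and 19.4%, against 25.6% and 22.2%). Treg cells had 7 members (22.6%) called higher and 1 (3.23%) lower, against 13.9% and 10.1%, and 16 that rose and 8 that fell (51.6% and 25.8%, against 32.9% and 26.9%). The share called higher was thus above that of all genes in TH17 and Treg cells and below it in TH2 cells. The median log2 fold change of the members was 0.18, -0.02, 0.33 and 0.27 in TH1, TH2, TH17 and Treg cells, where that of all genes was 0.02, 0.00, 0.05 and 0.07.

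In libraries labelled Dohh-/- more members fell than rose in every subset. In TH1 cells, 2 members (6.45%) were called higher and 4 (12.9%) lower, against 14.8% and 14.2% of 13897 genes tested, and 7 rose and 14 fell (22.6% and 45.2%, against 25.9% and 24.1%). In TH2 cells, 3 (9.68%) were called higher and 7 (22.6%) lower, against 14.3% and 11.6%, and 5 rose and 15 fell (16.1% and 48.4%, against 23.8% and 21.5%). TH17 cells had 3 members (9.68%) called in each direction, against 17.3% higher and 14.1% lower, and 6 that rose and 11 that fell (19.4% and 35.5%, against 27% and 24.9%). Treg cells had 4 members (12.9%) called higher and 9 (29.0%) lower, against 17.5% and 15.2%, and 5 that rose and 14 that fell (16.1% and 45.2%, against 28.4% and 25%). Medians over the members were -0.49, -0.51, -0.42 and -0.31, against 0.01, 0.02, 0.01 and 0.03 over all genes. Leaving out 1 library moved the Treg median to as far as -0.535 (without WT replicate 2) and -0.211 (without labelled replicate 2). With replicate 1 as the lone labelled library, without the 4 libraries of high myeloid marker level, the medians over the members were -0.41 in TH17 and -0.34 in Treg cells.

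**Figure D2:**
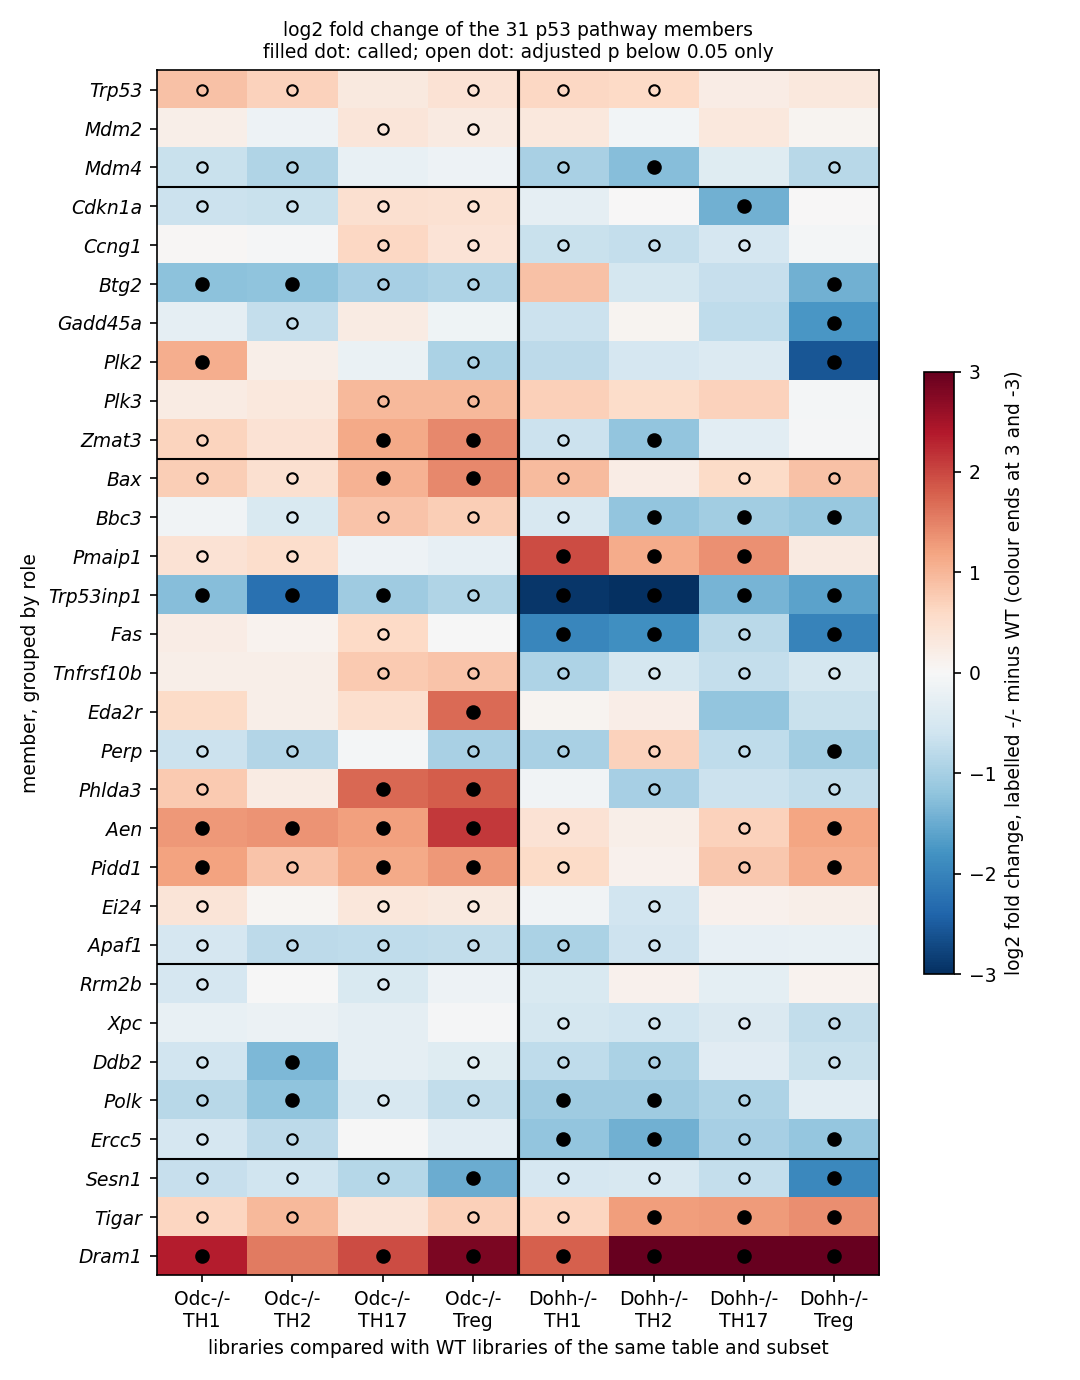
Log2 fold change of each member (rows, grouped by role) in libraries labelled Odc-/- (left 4 columns) and Dohh-/- (right 4 columns) against WT. Filled dots mark called members (18 higher and 8 lower on the left, 12 higher and 23 lower on the right) and open dots those past the adjusted p alone.

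Trp53 (ENSMUSG00000059552.13, chr11:69580359-69591873, + strand) was transcribed at higher levels in several groups but was called in none. Its level in TH1 cells labelled Odc-/- was 158, 241, 213 and 231 CPM, against 106, 105, 103 and 146 CPM in WT. Every labelled Odc-/- library lay above every WT library, and the rise was 0.88 on the log2 scale (SE 0.16, adjusted p = 4.92e-05). Trp53 also rose in TH2 cells labelled Odc-/-, by 0.68 (adjusted p = 0.00102), again with groups apart, and in Treg cells, by 0.44 (adjusted p = 0.0165), where WT replicate 4 at 206 CPM lay above every labelled Odc-/- library. In the Dohh table it rose in TH1 cells by 0.62 (adjusted p = 0.0248) and in TH2 cells by 0.59 (adjusted p = 0.0351), in both with groups apart. In TH17 cells of both tables the groups overlapped and the test was not passed.

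Mdm2 (ENSMUSG00000020184.14, chr10:117688875-117710758, - strand), the ligase that degrades p53 and a classical p53 target, moved little. It was 104, 129.9, 121 and 123 CPM in TH17 cells labelled Odc-/- and 91.1, 83.7, 86.4 and 108 CPM in WT, and 96.5, 117, 99.4 and 98.9 CPM in Treg cells labelled Odc-/- against 81.1, 84.1, 75.7 and 99.8 CPM. In each pair only WT replicate 4 reached into the range of the labelled Odc-/- libraries. These rises, 0.37 (adjusted p = 0.0053) and 0.27 (adjusted p = 0.0265) on the log2 scale, were the only ones of Mdm2 to pass the test. In the other 6 comparisons its fold change lay between -0.14 and 0.32 and the groups overlapped. Mdm4 (ENSMUSG00000054387.13, chr1:132959484-133030561, - strand), the other inhibitor, fell in TH1 and TH2 cells of both tables and in Treg cells labelled Dohh-/-. Its level in TH2 cells labelled Dohh-/- was 106 ± 15.6 CPM (mean ± SD, n = 3) against 259 ± 57.996 CPM (n = 3) in WT, the one comparison in which it was called (log2 fold change -1.29, SE 0.23, adjusted p = 0.000176).

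Of the 7 members with roles in cell cycle arrest and growth control, Cdkn1a (ENSMUSG00000023067.13, chr17:29090976-29100727, + strand) moved in both directions. In TH17 cells labelled Dohh-/- it was 104, 76.9 and 111 CPM, against 239, 262 and 293 CPM in WT. All 3 labelled libraries lay below all 3 WT libraries, and Cdkn1a was called lower (log2 fold change -1.45, SE 0.17, adjusted p = 9.65e-07). Against WT, replicate 1 alone, without the 2 TH17 libraries of high myeloid marker level, gave a fold change of -1.35.

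In TH17 cells labelled Odc-/- the same gene was 134, 242, 123 and 193 CPM against 113, 138, 122 and 125 CPM in WT, a rise of 0.48 (adjusted p = 0.0064). Replicates 2 and 4 carried it, while replicates 1 and 3 lay within the WT range. Cdkn1a rose too in Treg cells labelled Odc-/-, from 139, 146, 138 and 146 CPM to 190.4, 209, 169 and 219.6 CPM, with groups apart. It fell in TH1 cells labelled Odc-/-, where it was 555, 494, 463 and 429 CPM against 730.5, 771, 763 and 759 CPM (log2 fold change -0.64, SE 0.14, adjusted p = 0.000321), and in TH2 cells (-0.67, adjusted p = 0.000428), in both with groups apart. In TH1, TH2 and Treg cells labelled Dohh-/- the groups overlapped, with fold changes of -0.28, 0.01 and 0.00. The genotype effect on Cdkn1a thus differed between subsets in both tables (adjusted p = 1.01e-05 and 0.00029 for the interaction of genotype and subset). An antisense gene covers 7.68% of the exons of Cdkn1a, and the strand setting of the counting is not given in the sources used here.

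Btg2 (ENSMUSG00000020423.6, chr1:134075170-134079120, - strand), an antiproliferative gene and a brake on T cell activation, fell in all 4 subsets labelled Odc-/-. In TH1 cells it was 62.5, 33.9, 30.96 and 30.8 CPM labelled Odc-/- and 104, 88.6, 111 and 69.7 CPM in WT (log2 fold change -1.24, SE 0.20, adjusted p = 1.67e-05). In TH2 cells it was 44.3, 49.2 and 41.6 CPM against 110.3, 102, 128 and 75.8 CPM (log2 fold change -1.21, SE 0.22, adjusted p = 4.36e-05). Both were called, and groups were apart in all 4 subsets, with WT replicate 4 the lowest WT library in each. Among the libraries labelled Dohh-/-, Btg2 was called lower in Treg cells, where it was 76.8, 57.2 and 49.7 CPM against 171, 157 and 173 CPM (log2 fold change -1.45, SE 0.45, adjusted p = 0.0103). With replicate 1 alone, without the 2 Treg libraries of high myeloid marker level, this fold change was -1.16. TH1 replicate 3 labelled Dohh-/- stood far apart at 342 CPM, where the other 2 were 69.4 and 43.1 CPM and WT libraries were 80.3 to 85.5 CPM. With it the TH1 fold change was 0.88 (adjusted p = 0.105), and without it -0.55 (adjusted p = 0.0273).

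Zmat3 (ENSMUSG00000027663.12, chr3:32334792-32366014, - strand), an RNA-binding protein of the p53 tumour suppressor program, was called in opposite directions. In Treg cells labelled Odc-/- it was 73.6, 105, 63.4 and 118 CPM against 35.4, 30.1, 31.7 and 36.2 CPM in WT (log2 fold change 1.44, SE 0.20, adjusted p = 1.77e-06), and in TH17 cells 78.7, 144, 83.4 and 144 CPM against 54.8, 56.5, 50.4 and 44.96 CPM (log2 fold change 1.12, SE 0.20, adjusted p = 8.81e-05). The groups were apart in both, with replicates 2 and 4 highest. In TH2 cells labelled Dohh-/- it was 44.7, 39.8 and 46.3 CPM against 101, 84.4 and 113 CPM, all lower than WT (log2 fold change -1.19, SE 0.20, adjusted p = 6.36e-05), and it fell in TH1 cells labelled Dohh-/- as well (-0.64, adjusted p = 0.00936). In TH17 and Treg cells labelled Dohh-/- its groups overlapped.

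The other members of this role were Ccng1, Gadd45a, Plk2 and Plk3. Ccng1 rose in TH17 and Treg cells labelled Odc-/-, by 0.62 and 0.41, and fell in TH1, TH2 and TH17 cells labelled Dohh-/-, by 0.67, 0.72 and 0.49. The Polo-like kinase gene Plk2 was called higher in TH1 cells labelled Odc-/- (119 ± 38.4 against 55.6 ± 2.29 CPM, n = 4 each, log2 fold change 1.09, SE 0.17, adjusted p = 1.07e-05). It was called lower in Treg cells labelled Dohh-/- (2.61 ± 1.96 against 15.5 ± 2.88 CPM, n = 3 each, log2 fold change -2.56, SE 0.49, adjusted p = 0.000186). The TH1 call was lost without labelled Odc-/- replicate 2 (0.90). Plk3 rose in TH17 and Treg cells labelled Odc-/-, by 0.97 and 0.96. Gadd45a, a stress gene with roles in growth arrest and repair, was called once, lower in Treg cells labelled Dohh-/- (-1.75, adjusted p = 0.00118), and an antisense gene covers 19.1% of its exons.

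Of the 13 apoptosis members, 6, 4, 8 and 8 rose with the label Odc-/- in TH1, TH2, TH17 and Treg cells (46.2%, 30.8%, 61.5% and 61.5%), where 29.1%, 29.9%, 25.6% and 32.9% of all genes did, so that the share in TH2 cells was near that of all genes. In the same cells 3, 4, 2 and 3 fell (23.1%, 30.8%, 15.4% and 23.1%, against 27.7%, 29.3%, 22.2% and 26.9%). With the label Dohh-/-, 4, 2, 4 and 3 rose (30.8%, 15.4%, 30.8% and 23.1%, against 25.9%, 23.8%, 27% and 28.4%) and 6, 7, 5 and 6 fell (46.2%, 53.8%, 38.5% and 46.2%, against 24.1%, 21.5%, 24.9% and 25%).

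Aen (ENSMUSG00000030609.18, chr7:78895854-78911209, + strand), a nuclease that p53 induces during apoptosis, was called higher in all 4 subsets labelled Odc-/-, the one member of which this was so. In Treg cells it was 73.6, 87.5, 79.1 and 89.3 CPM against 12.9, 16.5, 12.9 and 33.8 CPM in WT (log2 fold change 2.12, SE 0.23, adjusted p = 3.94e-08). In TH1 cells it was 57.7, 117, 95.98 and 105 CPM against 30.5, 38.7, 37.3 and 46.5 CPM (log2 fold change 1.30, SE 0.23, adjusted p = 4.05e-05), in TH2 cells 119, 76.2 and 97.02 CPM against 37.2, 42.1, 37.2 and 37.5 CPM (1.34, adjusted p = 4.05e-05), and in TH17 cells 58.3, 74.5, 68.2 and 75.7 CPM against 27.1, 25.99, 26.6 and 38.2 CPM (1.23, adjusted p = 0.000119). No library labelled Odc-/- reached down into the WT range in any subset. Aen was also called in Treg cells labelled Dohh-/-, at 49.7, 50.8 and 58.8 CPM against 22.95, 26.3 and 21.1 CPM (log2 fold change 1.18, SE 0.17, adjusted p = 1.12e-05). It rose by 0.44 in TH1 and 0.69 in TH17 cells labelled Dohh-/-, and in TH2 cells the fold change was 0.19 (adjusted p = 0.384).

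Pidd1 (ENSMUSG00000025507.13, chr7:141438113-141444025, - strand), the scaffold of the PIDDosome that activates caspase-2, followed nearly the same pattern. It was 92.6, 83.4, 86.5 and 82.5 CPM in Treg cells labelled Odc-/- against 31.8, 31.8, 33.8 and 41.95 CPM in WT (log2 fold change 1.31, SE 0.15, adjusted p = 9.45e-08), and 54.2, 83.6, 78.95 and 73.3 CPM in TH1 cells against 33.5, 28.02, 34.7 and 29.5 CPM (log2 fold change 1.21, SE 0.16, adjusted p = 1.59e-06). It was called in TH17 cells too (1.13) and rose in TH2 cells (0.84), with groups apart in all 4. In Treg cells labelled Dohh-/- it was 45.4, 45.8 and 47.6 CPM against 22.4, 20.5 and 21.3 CPM (log2 fold change 1.11, SE 0.22, adjusted p = 0.000233). The TH2 groups of the Dohh table overlapped (0.12, adjusted p = 0.672).

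Bax (ENSMUSG00000003873.10, chr7:45461697-45466898, - strand) rose in 7 of 8 comparisons. It was called in Treg cells labelled Odc-/-, at 179.5 ± 8.76 CPM (mean ± SD, n = 4) against 66.3 ± 6.80 CPM (n = 4, log2 fold change 1.44, SE 0.11, adjusted p = 1.59e-10), and in TH17 cells labelled Odc-/- (1.04, adjusted p = 1.33e-07), a value near the threshold that fell to 0.98 without 1 library. Its other rises were 0.73 and 0.47 in TH1 and TH2 cells labelled Odc-/-, and 0.95, 0.58 and 0.87 in TH1, TH17 and Treg cells labelled Dohh-/-. The TH1 libraries labelled Dohh-/- spread widely, at 265.7 ± 139.6 CPM (n = 3) against 137.6 ± 4.39 CPM (n = 3) in WT. In TH2 cells labelled Dohh-/- the fold change was 0.22 (adjusted p = 0.467). A predicted gene on the same strand covers 12.18% of the exons of Bax. Phlda3, which restrains the kinase Akt at the membrane, was called higher in TH17 and Treg cells labelled Odc-/-. In Treg cells it was 26.9 ± 5.59 CPM against 7.65 ± 0.977 CPM (n = 4 each, log2 fold change 1.81, SE 0.26, adjusted p = 1.46e-06), and in TH17 cells the fold change was 1.73 (adjusted p = 1.1e-05). With the label Dohh-/- it fell in TH2 cells (-0.999, adjusted p = 0.00681) and Treg cells (-0.73, adjusted p = 0.0431).

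Bbc3 (ENSMUSG00000002083.12, chr7:16308393-16318205, + strand), which encodes the BH3-only protein PUMA, moved in opposite directions in TH17 and Treg cells of the 2 tables. In TH17 cells labelled Odc-/- it was 16.6, 24.2, 18.5 and 23.3 CPM against 8.93, 11.9, 13.5 and 11.6 CPM in WT, a rise of 0.85 (adjusted p = 0.000789), and in Treg cells 21.5, 32.5, 24.6 and 29.3 CPM against 13.4, 15.8, 18.9 and 16.2 CPM, a rise of 0.75 (adjusted p = 0.00103). It fell in TH2 cells labelled Odc-/- (-0.47, adjusted p = 0.0471), and in TH1 cells the fold change was -0.11 (adjusted p = 0.624). In TH17 cells labelled Dohh-/- it was 20.9, 15.2 and 22.1 CPM against 43.8, 35.1 and 39.8 CPM (log2 fold change -1.04, SE 0.20, adjusted p = 0.000199), and in Treg cells 20.1, 16.2 and 12.1 CPM against 30.1, 35.3 and 41.6 CPM (log2 fold change -1.15, SE 0.20, adjusted p = 6.15e-05). Groups were apart in all 4 of these comparisons. With replicate 1 as the lone labelled library, without those of high myeloid marker level, the fold changes in the Dohh table were -0.92 in TH17 and -0.86 in Treg cells. Bbc3 was also called lower in TH2 cells labelled Dohh-/-, at 20.6, 20.9 and 15.9 CPM against 42.7, 46.1 and 41.7 CPM (log2 fold change -1.19, SE 0.20, adjusted p = 6.47e-05).

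Pmaip1 (ENSMUSG00000024521.7, chr18:66458533-66465565, + strand), which encodes the BH3-only protein NOXA, rose in 3 of the 4 Dohh comparisons, in all of which Bbc3 fell. In TH1 cells labelled Dohh-/- it was 60.3, 54.3 and 66.1 CPM against 16.5, 12.4 and 17.8 CPM in WT (log2 fold change 1.95, SE 0.20, adjusted p = 2.48e-07). In TH17 cells it was 65.2, 59.1 and 64.4 CPM against 27.4, 24.1 and 21.02 CPM (log2 fold change 1.38, SE 0.20, adjusted p = 1.12e-05), and in TH2 cells 32.2, 41.4 and 33.3 CPM against 13.7, 15.97 and 19.95 CPM (log2 fold change 1.11, SE 0.20, adjusted p = 0.000165). The lowest labelled library was above the highest WT library in these 3 subsets. The groups overlapped in Treg cells labelled Dohh-/- (0.28, adjusted p = 0.246). In the Odc table it rose by 0.44 in TH1 and 0.52 in TH2 cells, and was -0.15 and -0.24 in TH17 and Treg cells, where the test was not passed.

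Trp53inp1 (ENSMUSG00000028211.11, chr4:11156431-11174379, + strand) fell in 8 of 8 comparisons and was called in 7, and no other member was called lower as often. In TH2 cells labelled Dohh-/- it was 15.2, 13.6 and 10.8 CPM against 91.7, 83.2 and 146 CPM (log2 fold change -3.02, SE 0.39, adjusted p = 4.18e-06), and in TH1 cells 9.30, 5.52 and 22.8 CPM against 114, 93.4 and 80.3 CPM (log2 fold change -2.92, SE 0.39, adjusted p = 5.43e-06). In TH2 cells labelled Odc-/- it was 43.7, 42.7 and 40.05 CPM against 264, 186, 228 and 119 CPM (log2 fold change -2.24, SE 0.33, adjusted p = 4.5e-06). Groups were apart in every comparison except Treg cells of the Odc table. There it was 139, 338, 145 and 305 CPM against 512, 444, 475 and 309.98 CPM, so that WT replicate 4 reached into the labelled Odc-/- range, and the fall of 0.91 (adjusted p = 0.00646) missed the 2-fold threshold. For replicate 1 alone, without the 2 TH17 libraries of high myeloid marker level, the TH17 fold change in the Dohh table was -1.34.

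Fas (ENSMUSG00000024778.12, chr19:34290666-34327772, + strand), a death receptor that deletes activated T cells, fell in all 4 subsets labelled Dohh-/- and was called in 3. In Treg cells it was 7.40, 10.3 and 6.08 CPM against 32.1, 29.4 and 34.003 CPM in WT (log2 fold change -2.004, SE 0.23, adjusted p = 4.33e-07). In TH1 cells it was 8.28, 11.2 and 7.94 CPM against 34.1, 36.3 and 36.3 CPM (log2 fold change -1.97, SE 0.23, adjusted p = 9.7e-07), and in TH2 cells 9.23, 11.5 and 7.21 CPM against 28.6, 33.8 and 37.4 CPM (log2 fold change -1.83, SE 0.23, adjusted p = 2.23e-06). No labelled Dohh-/- library of any subset reached its WT range. In TH17 cells, with 29.02, 26.9 and 15.7 CPM against 39.9, 42.2 and 44.9 CPM, the fall was 0.82 (adjusted p = 0.00334), and the fold change was -0.54 for replicate 1 alone, without the libraries of high myeloid marker level. With the label Odc-/- Fas rose in TH17 cells, to 41.3, 51.4, 42.1 and 49.4 CPM from 33.99, 31.7, 35.4 and 21.5 CPM (0.59, adjusted p = 0.0239), and did not pass the test in TH1, TH2 or Treg cells. A second death receptor gene, Tnfrsf10b, whose product binds TRAIL, also fell in all 4 subsets labelled Dohh-/- (by 0.93, 0.53, 0.73 and 0.52) and rose in TH17 and Treg cells labelled Odc-/- (by 0.78 and 0.85).

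**Figure D3:**
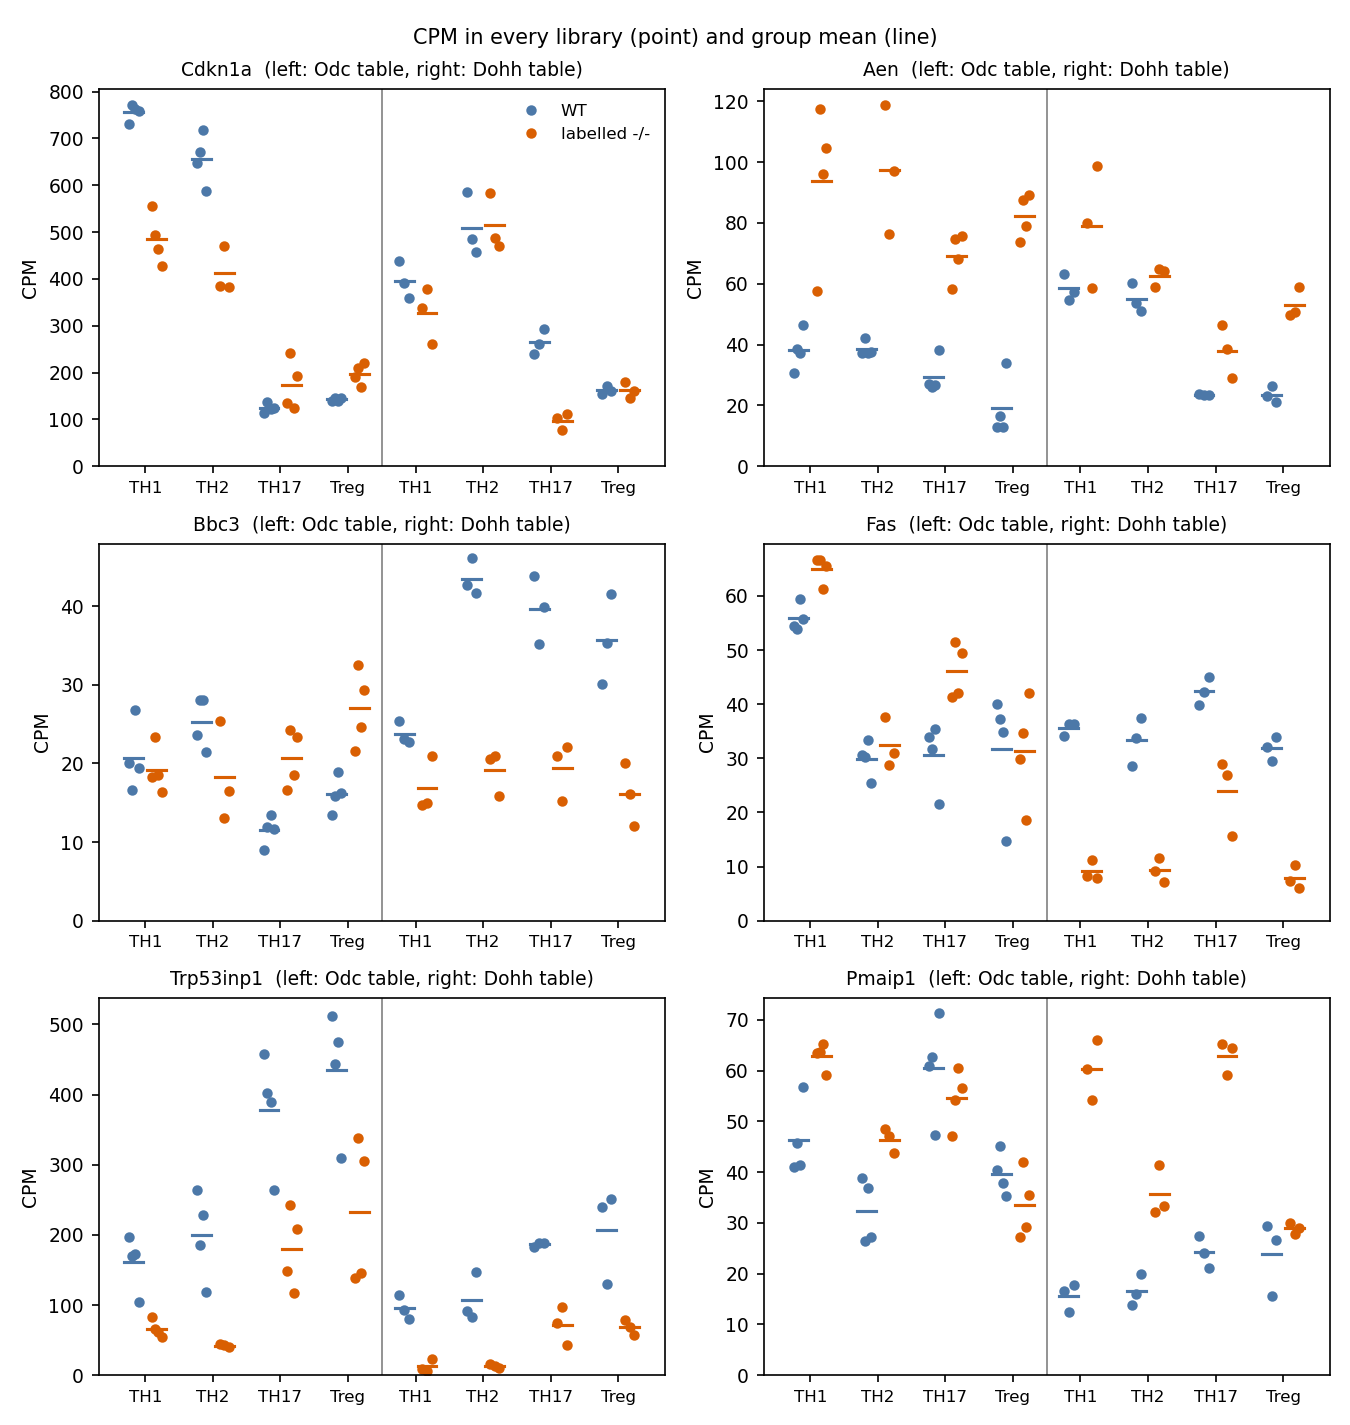
CPM of Cdkn1a, Aen, Bbc3, Fas, Trp53inp1 and Pmaip1 in every library (points) with group means (lines), WT beside libraries labelled Odc-/- (left of each panel) or Dohh-/- (right). Aen libraries labelled Odc-/- all lie above WT of their subset, and Fas libraries labelled Dohh-/- all lie below it.

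The remaining 4 apoptosis members were Apaf1, Perp, Ei24 and Eda2r. Apaf1, the core of the apoptosome, fell in all 4 subsets labelled Odc-/- (by 0.51 to 0.78) and in TH1 and TH2 cells labelled Dohh-/- (by 0.95 and 0.62). Perp, a desmosomal membrane protein that p53 induces, fell in 6 comparisons, was called lower in Treg cells labelled Dohh-/- (-1.05, adjusted p = 0.00126) and rose in TH2 cells labelled Dohh-/- (0.70, adjusted p = 0.0239). The Treg call was lost without labelled Dohh-/- replicate 1 (-0.80). Ei24 rose in TH1, TH17 and Treg cells labelled Odc-/-, by 0.38, 0.33 and 0.29, and fell in TH2 cells labelled Dohh-/- (-0.57). Eda2r was counted at most 2 times in each WT Treg library of the Odc table and at 5, 4, 1 and 5 in those labelled Odc-/-. It was at least 1.45-fold higher there when WT is set to its floor of 3 counts per library. The adjusted p was 0.0472, and the call was lost in 6 of the fits that left out 1 library.

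Of the 5 DNA repair and nucleotide members, 4, 3, 2 and 2 fell with the label Odc-/- in TH1, TH2, TH17 and Treg cells, where 27.7%, 29.3%, 22.2% and 26.9% of all genes did. Among libraries labelled Dohh-/-, 4, 4, 3 and 3 of the 5 fell, against 24.1%, 21.5%, 24.9% and 25% of all genes. None of the 5 rose in any comparison, where 23.8% to 32.9% of all genes did. Ercc5 (ENSMUSG00000026048.16, chr1:44147744-44181260, + strand), the XPG nuclease of nucleotide excision repair, was 28.01, 23.8 and 22.4 CPM in TH2 cells labelled Dohh-/- against 60.7, 66.5 and 74.7 CPM in WT (log2 fold change -1.44, SE 0.17, adjusted p = 9.86e-07). In TH1 cells it was 22.3, 21.6 and 18.4 CPM against 50.6, 41.05 and 50.4 CPM (log2 fold change -1.19, SE 0.17, adjusted p = 9.63e-06), and in Treg cells 19.4, 17.98 and 15.2 CPM against 41.4, 42.1 and 34.7 CPM (log2 fold change -1.17, SE 0.17, adjusted p = 8e-06). Groups were apart in all 4 subsets of the Dohh table, and the TH17 fall was 0.99, just under the threshold. In the Odc table it fell in TH1 and TH2 cells, by 0.50 and 0.78, and its groups overlapped in TH17 and Treg cells.

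Polk (ENSMUSG00000021668.14, chr13:96480690-96542579, - strand), a DNA polymerase that copies past damaged bases, fell in 7 of 8 comparisons. It was 31.1, 32.4 and 38.2 CPM in TH2 cells labelled Odc-/- against 88.4, 77.5, 88.1 and 58.2 CPM in WT (log2 fold change -1.20, SE 0.20, adjusted p = 2.18e-05), with groups apart. In TH1 cells labelled Dohh-/- it was 27.7, 12.8 and 32.9 CPM against 52.3, 47.02 and 56.5 CPM (log2 fold change -1.08, SE 0.25, adjusted p = 0.00127), and in TH2 cells 26.96, 25.3 and 23.7 CPM against 50.7, 45.3 and 62.4 CPM (log2 fold change -1.06, SE 0.25, adjusted p = 0.00174). Labelled Dohh-/- TH1 replicate 2, at 12.8 CPM, was the lowest, and without it the TH1 value was -0.78. Without WT TH2 replicate 3 the TH2 value was -0.93. Both lost their call, and the falls still passed the test.

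Ddb2, which recognizes ultraviolet damage, was called lower in TH2 cells labelled Odc-/- (23.6 ± 2.45 CPM, mean ± SD, n = 3, against 59.8 ± 6.14 CPM, n = 4, log2 fold change -1.34, SE 0.17, adjusted p = 5.68e-07). It fell in 5 further comparisons, and an antisense gene covers 23.83% of its exons. Xpc, the damage sensor of global genome repair, fell in all 4 subsets labelled Dohh-/- (by 0.53, 0.59, 0.44 and 0.74) and in none labelled Odc-/-. Rrm2b, the p53-induced subunit of ribonucleotide reductase, fell in TH1 and TH17 cells labelled Odc-/- by 0.51 and 0.45.

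Among the 3 members that act in metabolism and autophagy, Sesn1 (ENSMUSG00000038332.12, chr10:41809935-41908424, + strand) fell in 8 of 8 comparisons and was called in Treg cells of both tables, the subset in which WT cells had most of it. It was 26.6 ± 2.73 CPM (mean ± SD, n = 4) in Treg cells labelled Odc-/- against 74.4 ± 13.8 CPM (n = 4, log2 fold change -1.48, SE 0.15, adjusted p = 7.01e-09), and 23.2 ± 5.39 CPM (n = 3) in Treg cells labelled Dohh-/- against 88.3 ± 1.45 CPM (n = 3, log2 fold change -1.93, SE 0.16, adjusted p = 7.66e-09). In the other subsets the fall was 0.60 to 0.86 with the label Odc-/- and 0.49 to 0.71 with the label Dohh-/-.

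Tigar (ENSMUSG00000038028.9, chr6:127085116-127109557, - strand), a phosphatase that lowers glycolytic flux, rose in 7 of 8 comparisons. In Treg cells labelled Dohh-/- it was 23.97, 27.3 and 35.6 CPM against 12.8, 8.87 and 11.2 CPM in WT (log2 fold change 1.40, SE 0.19, adjusted p = 3.3e-06). In TH17 cells it was 22.4, 23.1 and 30.5 CPM against 11.3, 11.1 and 8.78 CPM (log2 fold change 1.28, SE 0.19, adjusted p = 1.36e-05), and in TH2 cells 27.1, 32.2 and 33.7 CPM against 14.6, 11.2 and 13.004 CPM (log2 fold change 1.26, SE 0.19, adjusted p = 1.86e-05). All 12 labelled Dohh-/- libraries were above the WT libraries of their subset, TH1 cells included (0.64, adjusted p = 0.00602). With the label Odc-/- it rose by 0.65 in TH1, 0.97 in TH2 and 0.70 in Treg cells, with groups apart in TH2 cells only.

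Dram1 (ENSMUSG00000020057.2, chr10:88322804-88379080, - strand), a lysosomal protein of p53-induced autophagy, was called higher in 7 of 8 comparisons. No WT library was above 1.62 CPM in the Odc table or 0.996 CPM in the Dohh table. Dram1 thus passed the low-count filter through labelled libraries, so its calls are conditional on that level and are given as description. It was 4.87, 32.7 and 38.5 CPM in TH17 cells labelled Dohh-/- against 0.807, 0.878 and 0.231 CPM in WT (log2 fold change 5.24, SE 0.74, adjusted p = 9.41e-06), and 4.20, 19.5 and 18.7 CPM in Treg cells against 0.753, 0.729 and 0.426 CPM (log2 fold change 4.45, SE 0.73, adjusted p = 3.75e-05). In Treg cells labelled Odc-/- it was 3.30, 4.46, 9.06 and 3.26 CPM against 0.635, 0.310, 0.576 and 1.28 CPM (log2 fold change 2.83, SE 0.56, adjusted p = 9.61e-05). Its groups were apart in these 3 comparisons and in TH1 and TH2 cells of the Dohh table (1.78 and 3.05).

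The highest Dram1 levels of each table stood in the libraries with the highest level of myeloid markers. The libraries labelled Dohh-/- with the highest Dram1, at 38.5, 32.7, 19.5 and 18.7 CPM, were the 4 in which the 7 summed myeloid markers were above 1000 CPM (1640, 4727, 3182 and 2001). In the Odc table the highest Dram1 values, 10.2 and 9.06 CPM in replicate 3 of TH17 and Treg cells labelled Odc-/-, stood in the libraries with the highest myeloid sums of that table, 299 and 361 CPM. Of the 7 markers, Itgam was at 0 in every library of the Dohh table. In replicate 1, the lone labelled library under 1000 CPM in TH17 and in Treg cells of the Dohh table, Dram1 was 4.87 and 4.20 CPM at myeloid sums of 103 and 90.3 CPM. Its fold changes with these lone libraries were 2.87 and 2.67. In TH1 cells labelled Dohh-/-, with myeloid sums of 3.47, 113.6 and 9.27 CPM in replicates 1, 2 and 3, Dram1 was 1.53, 2.68 and 4.41 CPM against 0.994, 0.996 and 0.449 CPM in WT. The order of the 2 levels thus differed there, and in TH2 cells labelled Odc-/- replicate 4 had the highest Dram1 (0.904 CPM) and the lowest myeloid sum (5.555 CPM). In TH1 cells labelled Odc-/- it was 1.21, 0.661, 0.844 and 0.560 CPM against at most 2 counts in each WT library, which makes it at least 1.88-fold higher when WT is set to the floor of 3 counts per library. The TH1 calls of both tables and the TH17 call of the Odc table were lost without 1 library, the last without labelled Odc-/- replicate 3 (1.01, adjusted p = 0.0972).

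**Figure D4:**
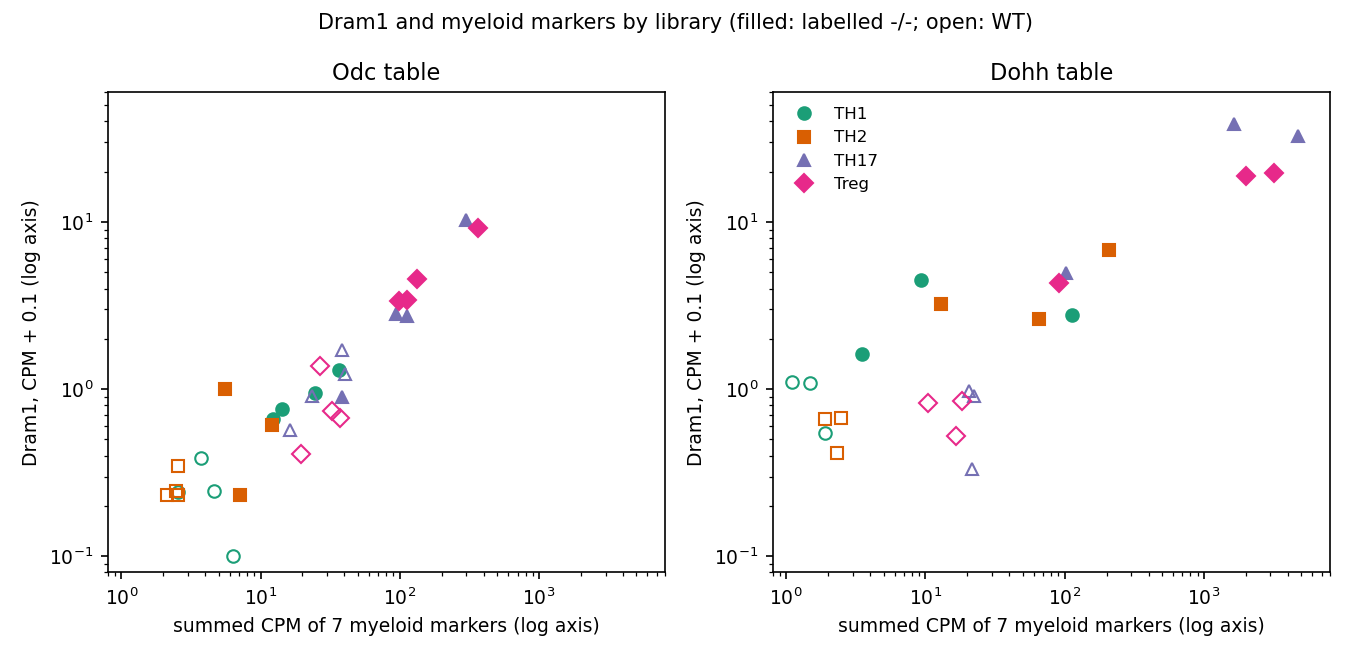
Dram1 in CPM plus 0.1 against the summed CPM of 7 myeloid markers, both on log axes, for each library of the Odc table (left) and the Dohh table (right); filled symbols are labelled -/- and open symbols WT. The 4 libraries labelled Dohh-/- above 1000 CPM of myeloid markers hold the highest Dram1, 18.7 to 38.5 CPM.

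Whether the effects of the 2 labels differed was tested in 1 fit of all 55 libraries over 14850 genes, as the difference between the fold changes, each taken against the WT libraries of its own table. Every library labelled Odc-/- is in one table and every library labelled Dohh-/- in the other, so the label and the table cannot be told apart in this difference. The effect differed for 11 members in TH1 cells (18.5% of all genes), 10 in TH2 cells (15.7%), 11 in TH17 cells (21.4%) and 12 in Treg cells (26.2%). It was lower with the label Dohh-/- for 9, 8, 8 and 11 of these. In TH1 cells the count was lower whichever replicate was left out, and in TH2 and Treg cells without some replicates, as given in the last section. Fas, Zmat3, Tnfrsf10b and Ercc5 had the lower effect with the label Dohh-/- in all 4 subsets. The difference for Fas was -2.17 in TH1 (SE 0.32, adjusted p = 4.69e-06), -1.97 in TH2, -1.35 in TH17 and -1.93 in Treg cells (SE 0.33, adjusted p = 1.21e-05). For Zmat3 it was -1.28, -1.63, -1.39 and -1.43, with adjusted p from 0.000109 to 0.00139.

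Several other members differed in TH17 or Treg cells. Cdkn1a differed by -1.87 in TH17 cells (SE 0.21, adjusted p = 1.6e-08), Bbc3 by -1.83 and -1.85 in TH17 and Treg cells, and Phlda3 by -2.31 and -2.50. Pmaip1 went the other way, with a higher effect under the label Dohh-/- in TH1 (1.53, adjusted p = 9.22e-06) and TH17 cells (1.58, adjusted p = 3.08e-06). Tigar was higher by 0.96 in TH17 and 0.72 in Treg cells, and Dram1 by 3.33 in TH17 cells. The difference for Btg2 in TH1 cells (2.13, adjusted p = 0.0011) includes TH1 replicate 3 labelled Dohh-/-, the library at 342 CPM.

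Of members that passed the test in both tables, 15 of 16 moved in the same direction in TH1 cells, 11 of 12 in TH2, 7 of 12 in TH17 and 11 of 14 in Treg cells (93.8%, 91.7%, 58.3% and 78.6%). Of all genes that passed in both tables, 95.6%, 94.8%, 93.5% and 89.6% did, so that the share of the members was near that of all genes in TH1 and TH2 cells. The 5 members with opposite directions in TH17 cells were Cdkn1a, Ccng1, Bbc3, Fas and Tnfrsf10b, each higher with the label Odc-/- and lower with the label Dohh-/-. In Treg cells Bbc3, Tnfrsf10b and Phlda3 differed in the same way, in TH1 cells Zmat3 did, and in TH2 cells Perp was lower with the label Odc-/- and higher with the label Dohh-/-. Trp53 itself showed no such gap, with differences of -0.23, -0.10, -0.01 and -0.10, none past the test (adjusted p of 0.611 or more, SE 0.26 in TH1 cells).

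**Figure D5:**
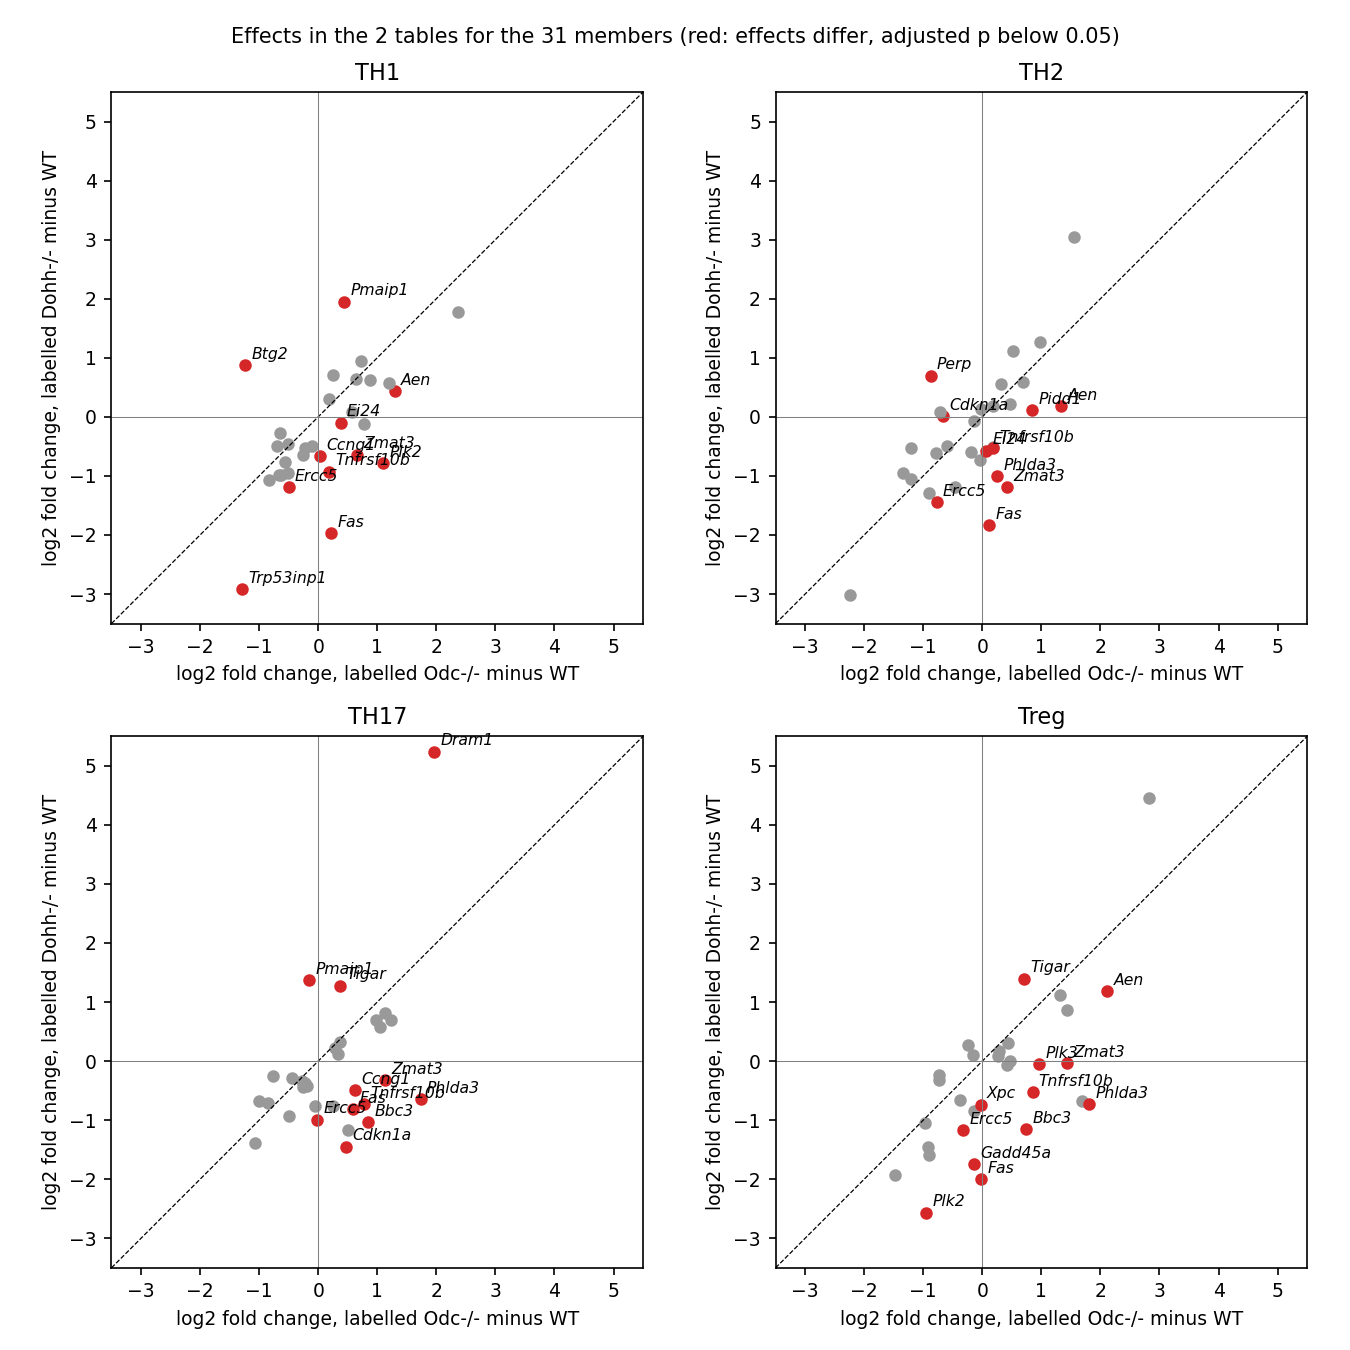
Log2 fold change with the label Dohh-/- (vertical axis) against that with the label Odc-/- (horizontal axis) for the 31 members in each subset, in red where the effects differed (11, 10, 11 and 12 members in TH1, TH2, TH17 and Treg cells). Most red members lie below the diagonal, the dashed line of equal effects.

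Within each table, the genotype effect differed between subsets for 14 members with the label Odc-/- (34.8% of all genes) and 9 with the label Dohh-/- (17.9%). Libraries of 1 genotype that carry the same replicate number in different subsets deviated together in WT of the Odc table, and with that number as a block within genotype, an alternative chosen after the data were seen, the counts were 21 (52.9% of all genes) and 11 (19.0%). The counts were lower without some replicate numbers, at 5 without replicate 2 and 9 without replicate 3 in the Odc table, and at 2 without replicate 1 and 4 without replicate 2 in the Dohh table. With the label Odc-/-, the adjusted p was 4.89e-06 for Plk2, 1.01e-05 for Cdkn1a, 0.000227 for Bax and 0.000656 for Bbc3. The last 3 had higher fold changes in TH17 and Treg than in TH1 and TH2 cells, while Plk2 was higher in TH1 and lower in Treg cells. With the label Dohh-/-, the adjusted p was 0.000192 for Sesn1, 0.00029 for Cdkn1a, 0.00148 for Pmaip1 and 0.0023 for Perp. Sesn1 fell most in Treg cells, Cdkn1a fell in TH17 cells only, and Pmaip1 rose in TH1, TH2 and TH17 cells.

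Other genes of the pathway were also called in both directions. Of 30 further p53 targets, 28 were tested, of which 1, 2, 6 and 5 were called higher with the label Odc-/- in TH1, TH2, TH17 and Treg cells (3.57%, 7.14%, 21.4% and 17.9%, against 10.2%, 11.5%, 8.35% and 13.9% of all genes). In the same cells 1, 3, 2 and 3 were called lower (3.57%, 10.7%, 7.14% and 10.7%, against 11.3%, 13.6%, 7.21% and 10.1%). With the label Dohh-/-, 4, 1, 4 and 3 were called higher (14.3%, 3.57%, 14.3% and 10.7%, against 14.8%, 14.3%, 17.3% and 17.5%) and 3, 6, 5 and 4 lower (10.7%, 21.4%, 17.9% and 14.3%, against 14.2%, 11.6%, 14.1% and 15.2%). Most of these shares were near or below those of all genes, and the shares called higher in TH17 cells labelled Odc-/- and lower in TH2 cells labelled Dohh-/- were the farthest above. Sulf2, a heparan sulfatase, was called higher in 7 of 8 comparisons. In Treg cells labelled Odc-/- it was 18.6, 17.95, 16.96 and 16.03 CPM against 1.27, 1.45, 2.53 and 0.932 CPM (log2 fold change 3.48, SE 0.31, adjusted p = 1.36e-09). In TH2 cells labelled Dohh-/- it was not called (0.34, adjusted p = 0.504). Trp73, a p53 relative that p53 induces, was called higher in TH2 and TH17 cells of both tables, and was at least 2.70-fold and 2.89-fold higher in the TH2 cells labelled Odc-/- and Dohh-/- with WT set to the floor. Of the same list Abhd4, a phospholipase of N-acyl ethanolamine synthesis, was called lower in 7 of 8 comparisons and Ephx1, an epoxide hydrolase, in 5, both named after their values were seen.

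Of 19 genes that activate or modify p53, Cdkn2a was called higher in 8 of 8 comparisons and Hipk2 lower in 5. The others were called in at most 2 comparisons each, and most of them in none. Cdkn2a encodes p16 and the ARF protein, and ARF blocks Mdm2. These counts do not separate the 2 transcripts. In TH1 cells labelled Odc-/- it was 94.7, 29.8, 36.03 and 22.7 CPM against 1.01, 1.42, 1.45 and 5.03 CPM in WT (log2 fold change 4.36, SE 0.52, adjusted p = 7.21e-07), and in TH1 cells labelled Dohh-/- 16.2, 30.1 and 5.85 CPM against 0.0828, 0.399 and 0.561 CPM (log2 fold change 5.66, SE 0.75, adjusted p = 5.06e-06). In TH17 and Treg cells of the Dohh table WT libraries held at most 3 counts, and it was at least 12.1-fold and 18.3-fold higher. With WT that low, Cdkn2a may have passed the low-count filter of the Dohh table through labelled libraries. Its calls in that table may thus be conditional on its level there. Groups were apart in every comparison. Hipk2, a kinase that phosphorylates p53, was 12.2, 11.5 and 22.8 CPM in TH17 cells labelled Dohh-/- against 53.8, 46.8 and 49.1 CPM in WT (log2 fold change -1.70, SE 0.25, adjusted p = 1.17e-05). It was called in all 4 subsets labelled Dohh-/- and in TH17 cells labelled Odc-/- (-1.07).

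Downstream of p21, 21 cell cycle genes that the DREAM complex represses were counted. Of these, 12, 10, 8 and 4 rose with the label Odc-/- in TH1, TH2, TH17 and Treg cells (57.1%, 47.6%, 38.1% and 19.0%, against 29.1%, 29.9%, 25.6% and 32.9% of all genes), and 3, 3, 1 and 11 fell (14.3%, 14.3%, 4.76% and 52.4%, against 27.7%, 29.3%, 22.2% and 26.9%). With the label Dohh-/-, 15, 8, 10 and 18 rose (71.4%, 38.1%, 47.6% and 85.7%, against 25.9%, 23.8%, 27% and 28.4%) and 0, 2, 0 and 0 fell, where 24.1%, 21.5%, 24.9% and 25% of all genes did. Cdc6, which loads the replicative helicase, was 68.8, 72.6 and 74.9 CPM in Treg cells labelled Dohh-/- against 13.8, 17.5 and 14.6 CPM in WT (log2 fold change 2.24, SE 0.27, adjusted p = 8.23e-07) and was called in 6 comparisons. Ccne1, cyclin E1, was called in 5, with 109.8, 110.1 and 109 CPM against 28.3, 26.99 and 33.2 CPM in the same cells (log2 fold change 1.89, SE 0.23, adjusted p = 1.02e-06).

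Of 13 BCL-2 family genes outside the members, 12 were tested in the Odc and 11 in the Dohh table, and at most 2 were called in either direction in any comparison (up to 16.7% and 18.2%, where 7.21% to 17.5% of all genes were called in a direction). Bcl2l11, the BH3-only gene for BIM, which is not among the members and which FOXO factors induce, was 17.7, 13.3, 22.1 and 16.3 CPM in TH17 cells labelled Odc-/- against 125, 117, 138 and 67.5 CPM in WT (log2 fold change -2.69, SE 0.30, adjusted p = 3.08e-07). It was called lower in TH1 cells of both tables and in TH2 cells labelled Dohh-/- as well. Bcl2a1b was called higher in TH1 and TH2 cells of both tables (1.82, 1.78, 2.30 and 2.67), which is uncertain because near-identical copies share its reads and 49.08% of its exons overlap another gene.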

How the data were processed

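RNA was measured in 55 libraries of CD4+ T cells polarized for 4 days. The authors trimmed and mapped reads with STAR to mm10 and counted them with featureCounts; the 2 deposited tables hold unnormalized read counts for each gene. Strand setting and annotation release are not given in the sources used here. Genes were placed with GENCODE M21 on GRCm38, which matched 47224 of 47937. Odc TH2 replicate 1 labelled Odc-/- was not analysed here.

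Each table was fitted with edgeR 4.0.16 in R 4.3.3 (quasi-likelihood test, robust, TMM scaling, filterByExpr over 8 groups), with 13839 and 13897 genes tested and 8 comparisons. Adjusted p-values are Benjamini-Hochberg over all genes tested. For each fold given as "at least", WT was set to a floor of 3 counts per library. That is the 95% limit for a count of 0 and covers counting error only. It was used also where WT counts were low but above 0. CPM were computed from TMM-scaled library totals. The fits were tested on simulated data.

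Alternatives were DESeq2 1.42.0, RLE factors, other low-count filters, the 2 groups alone, a replicate block, glmTreat, the adjusted p alone, and each library left out. Genes with values per library are Trp53, Mdm2, Cdkn1a and members called in 3 or more comparisons; of 4 other lists, the 2 genes with the largest mean fold change among those called in 4 or more. Members and lists were chosen with earlier results of these data known. Tables and figures were made with Python 3.11.15, pandas 2.3.3, numpy 2.4.6 and matplotlib 3.10.9.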

Additional observations from a re-analysis of the deposited data

Results flagged for a closer look

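In 10 of 105 groups of 4 libraries tested, 1 library of a member stood apart from the other 3 by Dixon's test at its 95% level, which chance alone gives for about 1 group in 20. The groups tested were those of the members given above with values per library. Only the Odc table has groups of 4, and the groups of 3 in the Dohh table were not tested; 6 of the 10 were WT replicate 4. Trp53 was 222 CPM in WT TH17 replicate 4 and 146 CPM in WT TH1 replicate 4, each high for its group. Tigar was likewise high in the same libraries, at 27.1 and 29.2 CPM, and Aen at 38.2 CPM in WT TH17 replicate 4. WT replicate 4 in TH17 cells was low for Btg2, at 79.6 CPM. Mdm2 was high at 117 CPM in Treg replicate 2 labelled Odc-/-, and Btg2 at 62.5 CPM in TH1 replicate 1 labelled Odc-/-. Aen was high at 42.1 CPM in WT TH2 replicate 2, and Dram1 at 0.245 CPM, which is 2 counts, in WT TH2 replicate 1.

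Some members answered the same label differently in different subsets, by edgeR's quasi-likelihood test of the interaction with Benjamini-Hochberg adjustment. Here and in the next paragraph only members with values per library are listed, so Plk2, Bax and Sesn1, given above, may be missing. With the label Odc-/-, the adjusted p was 0.0459 for Mdm2, 1.01e-05 for Cdkn1a, 0.0273 for Zmat3, 0.000656 for Bbc3, 0.00497 for Pmaip1 and 0.0338 for Ercc5. With the label Dohh-/-, it was 0.00029 for Cdkn1a, 0.0231 for Zmat3, 0.00148 for Pmaip1, 0.0335 for Trp53inp1, 0.0191 for Fas and 0.0265 for Aen.

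Others answered the labels Odc-/- and Dohh-/- differently in the same subset, by the test of the difference between the fold changes in 1 edgeR fit. In TH1 cells the adjusted p was 0.0011 for Btg2, 0.00139 for Zmat3, 9.22e-06 for Pmaip1, 0.0144 for Trp53inp1, 4.69e-06 for Fas, 0.0378 for Aen and 0.0308 for Ercc5. In TH2 cells it was 0.0306 for Cdkn1a, 0.000109 for Zmat3, 4.26e-05 for Fas, 0.00551 for Aen, 0.049 for Pidd1 and 0.0342 for Ercc5. In TH17 cells it was 1.6e-08 for Cdkn1a, 0.000512 for Zmat3, 2.83e-06 for Bbc3, 3.08e-06 for Pmaip1, 0.00155 for Fas, 0.00249 for Ercc5, 0.00876 for Tigar and 0.00712 for Dram1. In Treg cells it was 0.000228 for Zmat3, 9.33e-07 for Bbc3, 1.21e-05 for Fas, 0.0196 for Aen, 0.00583 for Ercc5 and 0.0429 for Tigar.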

How the results depend on the processing

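Of the 61 calls, 48 held without any 1 library. Beside the losses given above for Polk, Perp, Plk2, Eda2r and Dram1, calls fell just under 2-fold, with the adjusted p still past the threshold, in TH17 cells labelled Odc-/- for Bax (without labelled replicate 2 or 4 or WT replicate 1, down to 0.98), Zmat3 (without labelled replicate 2 or 4, 0.98) and Trp53inp1 (without labelled replicate 1 or 3 or WT replicate 1, up to -0.92). The same held with the label Dohh-/- for Bbc3 in TH17 cells (without labelled replicate 2 or WT replicate 1, up to -0.89) and Pmaip1 in TH2 cells (without labelled replicate 2 or WT replicate 1, 0.98). Dram1 in TH1 cells lost its call in 5 of the fits without 1 library in each table, with adjusted p up to 0.079 (Odc) and 0.187 (Dohh). By the adjusted p alone, 22, 18, 20 and 24 members passed with the label Odc-/- in TH1, TH2, TH17 and Treg cells, and 21, 20 and 17 with the label Dohh-/- in TH1, TH2 and TH17 cells. Tested against a 2-fold change with glmTreat, 0, 1 and 1 remained in TH1, TH2 and TH17 cells labelled Odc-/- and 3, 4, 2 and 5 in the 4 subsets labelled Dohh-/-, since that test asks for more than 2-fold. The count in Treg cells labelled Odc-/- is not listed here. Without each replicate in turn, the members that differed between WT subsets were 13 to 22 in the Dohh table, and those whose genotype effect differed between subsets 2 to 11 there and 5 to 14 in the Odc table. Those whose effect differed between the labels were 5 to 9 in TH1, 3 to 10 in TH2 and 6 to 12 in Treg cells. Shares of all genes were not computed for glmTreat or for the fits without a replicate, so these counts have no such share beside them. Btg2 in TH1 cells labelled Dohh-/- ranged from -0.545 to 1.3 and reversed without replicate 3; the cause was not tested. DESeq2, RLE factors, other filters and the 2 groups alone kept each count of calls within 1.5 times.

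Between labelled and WT libraries of the same number, 6 of 15 pairs in the Odc table and 1 of 12 in the Dohh table had a correlation of deviations above 0.1. The highest were 0.196 and 0.136. Labelled and WT libraries of other numbers were not compared in this way, so whether the numbers pair them was not settled. With the replicate number as a block, 5, 5, 8 and 10 members were called with the label Odc-/- and 5, 10, 6 and 13 with the label Dohh-/-, where 6, 5, 7 and 8 and 6, 10, 6 and 13 were called without it. Across subsets, same-numbered libraries of 1 genotype had a correlation above 0.1 in 24 of 24 pairs (Odc WT), 20 of 21 (Odc-/-), 15 of 18 (Dohh WT) and 13 of 18 (Dohh-/-), and other-numbered ones a median of -0.094 to -0.116. A replicate block within genotype, chosen after the data were seen, moved the members that differed between WT subsets from 28 to 30 (Odc table) and 22 to 23 (Dohh table), and those whose genotype effect differed between subsets from 14 to 21 and from 9 to 11. It cannot be fitted to a comparison with WT within a subset.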
